A study of Mus musculus with 32 samples.

Results

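Transcripts of the tumour suppressor p53 and of 8 genes known as its targets were followed in mouse presomitic mesoderm (PSM) cells grown in dishes. The 9 genes were chosen by symbol: Trp53, which encodes p53, and Cdkn1a, Mdm2, Ccng1, Bax, Bbc3, Perp, Trp53inp1 and Zmat3. They are 9 of the 21886 genes in the count table, and all 9 passed the filter on low counts that left 11772 genes for testing. No library had p53 removed or activated, so that these transcripts depend on p53 in these cells was not measured.

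PSM is the tissue at the tail end of the vertebrate embryo from which the somites are cut off, and it carries the segmentation clock, a cycle of expression led in mouse by the repressor Hes7. The cells came from mouse epiblast stem cells of a line based on AES0204 that carries a Hes7 luciferase reporter. All dishes received SB431542 (an inhibitor of TGF-beta type receptors), LDN193189 (an inhibitor of BMP receptors), the GSK3 inhibitor CHIR99021 and bFGF, with CHIR99021 lowered when the medium was changed. There were 2 separate time courses, Ex4 with 16 dishes frozen between 155 and 405 min and Ex5 with 16 dishes frozen between 165 and 425 min, and every dish gave 1 library. What the minutes are counted from is not given in the sources used here. Genotype and treatment were alike in both courses, and the experiment, its culture batch and its library batch cannot be told apart.

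p53 is a transcription factor that is held at a low level in unstressed cells because the ubiquitin ligase Mdm2 marks it for degradation, so its amount is set mainly at the protein, which was not measured. When it is stabilised it raises genes that halt the cell cycle, such as Cdkn1a (p21), genes that promote apoptosis, such as Bax and Bbc3 (PUMA), and its own inhibitor Mdm2, which closes a feedback loop. It binds DNA at a response element made of a pair of half-sites, often separated by a short spacer. Early embryonic cells are known to be ready to die through this pathway.

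Promoter sequences are shown first for the members in which a p53 element was found and for Bbc3, whose transcript followed Hes7. RefSeq windows on GRCm38.p6, from 250 bases before to 50 bases after a transcript start, were matched for 6 of the 9 members, and Perp, Trp53inp1 and Zmat3 had none. The p53 consensus was searched on both strands as 2 half-sites of 10 bases with a spacer of 0 to 13 bases. With at most 1 mismatch it was found in 3 of the 9 windows of those 6 members, 1 window each for 3 genes, against 1.09% of all 32851 windows. In Cdkn1a (chr17:29090859-29090978, plus strand) it had 0 mismatches, a spacer of 12 bases, and lay from -73 to -42 relative to that window's start. A further Cdkn1a window, of another start (chr17:29093519-29093818), had 5 mismatches at best. Of all windows, 0.0731% held a match without mismatch. In Ccng1 (chr11:40755412-40755531, minus strand) it had 1 mismatch, a spacer of 0 bases, and lay from -195 to -176. In Bax (chr7:45467029-45467148, minus strand) it had 1 mismatch, a spacer of 1 base, and lay from -212 to -192. Capitals mark the half-sites of the match with the fewest mismatches in each window. Other matches are not marked. In Cdkn1a the 10 bases right after the second half-site form a match with it at 1 mismatch, with a spacer of 0 bases.
Cdkn1a: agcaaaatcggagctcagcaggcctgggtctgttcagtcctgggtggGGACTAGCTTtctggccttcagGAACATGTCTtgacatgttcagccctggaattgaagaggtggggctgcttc
Ccng1: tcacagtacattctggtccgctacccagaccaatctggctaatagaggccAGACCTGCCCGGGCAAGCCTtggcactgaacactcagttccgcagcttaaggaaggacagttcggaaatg
Bax: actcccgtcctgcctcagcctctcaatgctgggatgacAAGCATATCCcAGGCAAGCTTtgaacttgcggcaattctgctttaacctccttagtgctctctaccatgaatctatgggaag

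Bbc3 has 3 annotated starts among the RefSeq windows, and none of its windows held a p53 element with at most 1 mismatch. The closest matches in them had 3, 3 and 6 mismatches. For the upstream start that match had 3 mismatches, a spacer of 0 bases, and lay from -97 to -78, in lower case below. Hes proteins are known to bind variants of the CACGTG and CACGCG boxes. The stretches before 2 of the starts (chr7:16309463-16309582 and chr7:16310311-16310430, plus strand) held such letters, in capitals below, where CGCGTG is CACGCG read on the other strand. Across all windows, searched on both strands, 9.27% held CACGCG and 7.15% held CACGTG, so these letters are common. CACNAG, where N is any base, was searched too and was in 42.5% of all windows. The Bbc3 windows held 0, 2 and 1 matches to it, which the capitals do not mark, and a Cdkn1a window held 1. Among the members the windows of Bax and Trp53, which did not pass the rhythm test, held CACGTG too (2 matches and 1 match). Both kinds of match describe the sequence only; no binding was measured.
Bbc3, upstream start: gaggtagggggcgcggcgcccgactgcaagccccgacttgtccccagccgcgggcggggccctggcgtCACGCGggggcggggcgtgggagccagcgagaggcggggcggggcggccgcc
Bbc3, downstream start: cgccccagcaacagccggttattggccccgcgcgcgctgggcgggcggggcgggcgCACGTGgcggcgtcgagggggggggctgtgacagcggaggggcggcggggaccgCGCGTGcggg

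Library totals ran from 19257945 to 29528175 counted reads in Ex4 and from 16132024 to 28586704 in Ex5. All 10 PSM markers passed the filter, with a summed level of 3020 to 3799 CPM (library-size-scaled read counts) in Ex4 and 3645 to 4375 in Ex5. Of 8 epiblast markers 3 passed; their list summed to 98.1 to 218 CPM in Ex4 and 56.2 to 150.3 in Ex5, and Nanog, Otx2, Fgf5 and Tdgf1 stayed under 1 CPM. The 5 neural markers summed to 25.3 to 34.2 CPM in Ex4 and 20.0 to 25.7 in Ex5, and all 5 blood markers stayed under 1 CPM. Endoderm markers summed to 26.7 to 52.8 CPM in Ex4 and 28.7 to 52.0 in Ex5, those of lateral, intermediate and vascular mesoderm to 4.84 to 7.54 and 3.43 to 8.43, and those of somite to 2.52 to 6.40 and 2.34 to 4.52. The Ex4 library at 405 min stood apart, with the widest scatter around the fitted curves (SD 0.124 log2, against a median of 0.0718 in Ex4) and the highest share of mitochondrial reads (0.682%).

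Per length of exon, Ccng1 was the most abundant member and Perp the least in both courses. In Ex4 the mean level was 116 ± 6.07 CPM per kb (SD, n = 16) for Ccng1, 89.4 ± 4.10 for Bax, 85.9 ± 3.96 for Trp53, 45.1 ± 2.86 for Cdkn1a, 20.3 ± 1.46 for Mdm2, 17.7 ± 0.869 for Zmat3, 15.2 ± 1.42 for Bbc3, 13.0 ± 1.38 for Trp53inp1 and 5.99 ± 1.02 for Perp. The ranges of Bax and Trp53 overlapped, as did those of neighbours from Mdm2 down to Trp53inp1, while Ccng1, Cdkn1a and Perp stood clear of their neighbours. In Ex5 the order began with Ccng1 at 93.1 ± 5.94, Trp53 at 88.3 ± 5.00 and Bax at 85.1 ± 3.59 CPM per kb, each overlapping the next. Cdkn1a followed at 37.9 ± 4.18, then Mdm2 at 18.5 ± 0.836, Bbc3 at 18.4 ± 1.78 and Zmat3 at 15.2 ± 1.54. The ranges of Mdm2 and Bbc3 overlapped, with Mdm2 the higher in 7 of 16 libraries, and so did those of Bbc3 and Zmat3. Trp53inp1 at 7.79 ± 1.33 and Perp at 2.09 ± 0.547 stood below all of these without overlap.

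**Figure D1:**
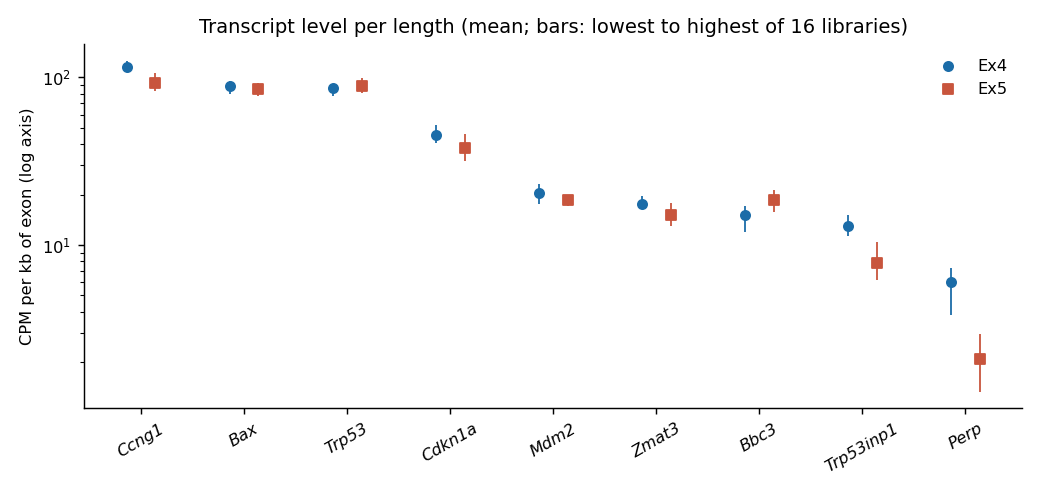
Mean level of each gene in CPM per kb of exon on a log axis, in Ex4 (circles) and Ex5 (squares), with vertical bars from the lowest to the highest of 16 libraries. Ccng1 leads at 116 and 93.1 CPM per kb, and Perp is lowest at 5.99 and 2.09.

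Over the hours sampled, Trp53 rose while most of the targets chosen as members fell. In the model fitted over all 32 libraries, with a level and a slope per course and a shared Hes7 rhythm, 1 member rose (26.8% of all tested genes did) and 6 fell (26.6% did) at an adjusted p under 0.05. Bax and Bbc3 did not pass. Ex5 was lower than Ex4 for 7 members (27.7% of all tested genes) and higher for Bbc3 alone (27.4%), compared at 285 min. For Ccng1, Perp and Trp53inp1 every Ex5 library lay below every Ex4 library, which held for 1.86% of all tested genes. The mitochondrial share of reads also differed, at 0.324 to 0.682% in Ex4 and 0.249 to 0.410% in Ex5, and its part in the level differences was not tested. In bulk RNA, fewer cells that express a gene and less RNA per cell cannot be told apart.

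**Figure D2:**
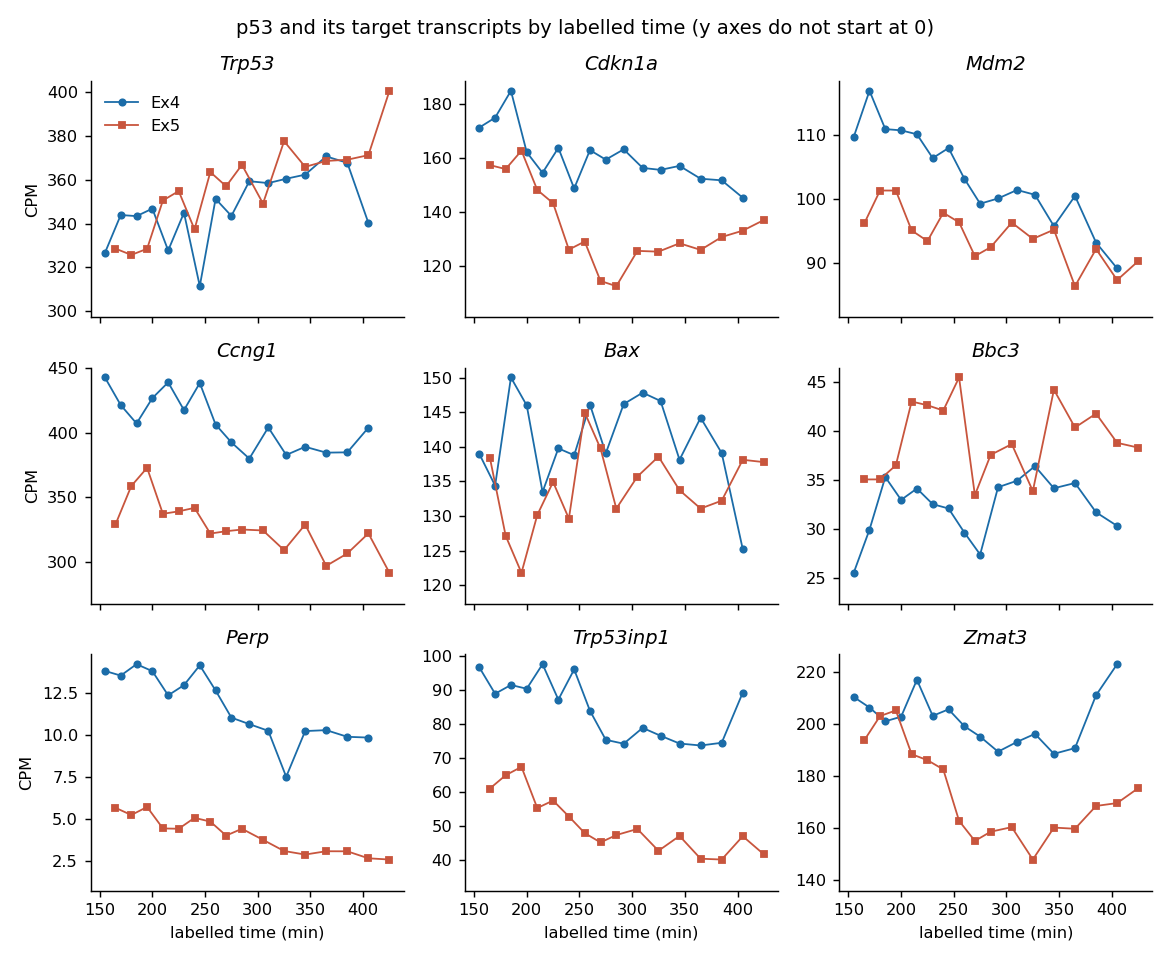
CPM of each of the 9 genes in each library against labelled time in minutes, Ex4 as circles and Ex5 as squares; the y axes do not start at 0. Trp53 climbs in both courses, and the Ex5 libraries of Ccng1, Perp and Trp53inp1 all lie below those of Ex4.

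Trp53 (chr11:69580359-69591873, plus strand) was measured at 311, 346 and 371 CPM in Ex4 and at 326, 360 and 401 CPM in Ex5 (lowest, median and highest of 16 libraries). The courses overlapped; the lowest Ex4 library was at 245 min and the highest Ex5 library was the last, at 425 min. The transcript rose by 0.07 ± 0.01 log2 per 100 min (SE, adjusted p = 1.02e-05), or 5.24%, with slopes of 0.06 ± 0.02 in Ex4 and 0.09 ± 0.02 in Ex5. Ex5 minus Ex4 was 0.03 ± 0.02 log2 (adjusted p = 0.153, 95% interval -0.0070 to 0.0702).

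Mdm2 (chr10:117688875-117710758, minus strand), the ligase that limits p53, was measured at 89.1, 102 and 117 CPM in Ex4 and at 86.3, 94.4 and 101 CPM in Ex5. Its highest Ex4 library was at 170 min and its lowest was the last, at 405 min; the courses overlapped. It fell by 0.09 ± 0.01 log2 per 100 min (adjusted p = 2.24e-07), with slopes of -0.12 ± 0.02 in Ex4 and -0.06 ± 0.02 in Ex5. Fitted to Ex5 alone the slope was -0.05 (adjusted p = 0.0256). The level in Ex5 was 0.922 times that in Ex4 (adjusted p = 6.30e-07).

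Cdkn1a (chr17:29090976-29100727, plus strand) encodes p21, which blocks cyclin-dependent kinases. It was measured at 145, 158 and 185 CPM in Ex4 and at 113, 129.9 and 163 CPM in Ex5. The highest libraries were early ones, at 185 min (Ex4) and 195 min (Ex5), and Ex5 was lowest in the middle, at 285 min, with 137 CPM at 425 min. It fell by 0.07 ± 0.02 log2 per 100 min (adjusted p = 0.00598), a straight line that does not follow that dip. Its slopes were -0.07 ± 0.03 in Ex4 (adjusted p = 0.0987) and -0.08 ± 0.03 in Ex5 (adjusted p = 0.0232). Fitted to each course alone they were -0.08 in Ex4 (adjusted p = 0.00629) and -0.07 in Ex5 (adjusted p = 0.111), so which course passes depends on the fit. Ex5 was lower by 0.24 ± 0.03 log2 (adjusted p = 3.81e-08), 0.845 times Ex4. GENCODE lists a transcript on the opposite strand over 7.68% of its exon bases.

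Ccng1 (chr11:40748552-40755311, minus strand) encodes cyclin G1, which acts with a phosphatase on Mdm2. It was measured at 380.0, 405 and 443 CPM in Ex4 and at 292, 325 and 373 CPM in Ex5, with no overlap. The highest Ex4 library was the first and the lowest Ex5 library the last. It fell by 0.08 ± 0.01 log2 per 100 min (adjusted p = 7.62e-06), with slopes of -0.07 ± 0.02 in Ex4 and -0.09 ± 0.02 in Ex5. Ex5 was lower by 0.31 ± 0.02 log2 (adjusted p = 9.44e-16), 0.808 times Ex4. With counts corrected for GC content and length the slope was -0.04 (adjusted p = 0.00143).

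The members that promote cell death went different ways. Bax (chr7:45461697-45466898, minus strand), whose protein opens the outer mitochondrial membrane, was measured at 125, 139 and 150.05 CPM in Ex4 and at 122, 134 and 145 CPM in Ex5. The courses overlapped and the libraries had no common order in time. Its slope was 0.00 ± 0.02 log2 per 100 min (adjusted p = 0.923, 95% interval -0.0309 to 0.0351), and Ex5 was lower by 0.07 ± 0.02 log2 (adjusted p = 0.0108). With the GC and length correction that difference was -0.19 (adjusted p = 9.23e-13). Gm45808 covers 12.2% of its exon bases on the same strand, so reads there are uncertain.

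Perp (chr10:18845020-18857073, plus strand) encodes a membrane protein of desmosomes that p53 can raise in apoptosis. It was the rarest member, with 46 to 416 reads per library. It was measured at 7.51, 11.7 and 14.2 CPM in Ex4 and at 2.60, 4.22 and 5.72 CPM in Ex5, so the highest Ex5 library lay below the lowest Ex4 library, at 327 min. Perp fell by 0.40 ± 0.03 log2 per 100 min (adjusted p = 1.39e-12), a change of -24.3%, and 1.33% of tested genes had a called slope at least as low. Its level in Ex5 was 0.353 times that in Ex4 (-1.50 ± 0.05 log2, adjusted p = 6.24e-26), and 0.127% of tested genes had a called difference at least as low. The slope was -0.31 ± 0.04 in Ex4 and -0.49 ± 0.05 in Ex5.

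Several falling members tracked the epithelial cadherin Cdh1, one of the epiblast markers. As deviations from each course's mean, log2 CPM correlated with that of Cdh1 over 32 libraries at r = 0.91 for Perp, 0.82 for Trp53inp1, 0.78 for Ccng1 and 0.77 for Mdm2. Cdkn1a was at 0.60, Zmat3 at 0.53 and the rising Trp53 at -0.75. Around the fitted curves these were, in the same order, 0.36, 0.21, 0.20, 0.01, 0.15, 0.27 and -0.02. The libraries share their courses and their drift in time. With the epiblast marker Pou5f1 the falling members lay from 0.42 (Zmat3) to 0.87 (Perp), with Mdm2 at 0.84. Around the curves they lay from -0.04 (Zmat3) to 0.31 (Perp). Cdh1 itself fell by 0.59 ± 0.02 log2 per 100 min and was lower in Ex5 by 0.48 ± 0.03. All 3 epiblast markers that passed the filter fell (26.6% of all tested genes did) and were lower in Ex5 (27.7%). Other markers moved as well. Lower in Ex5 were 3 of 4 tested neural genes (median -0.68 log2) and 2 of 2 of lateral, intermediate and vascular mesoderm (-0.63). So were 2 of 2 of somite (-0.75), against 27.7% of all tested genes. Of 10 PSM markers 7 were higher (27.4% of all tested genes were) and 3 lower, and neither of the 2 tested endoderm genes passed. Over time 2 of the 4 neural genes fell and 1 rose, and both lateral mesoderm genes fell. Of the PSM markers 5 rose and 4 fell, of the endoderm genes 1 rose and 1 fell, and of the somite genes 1 rose. Among all tested genes 26.8% rose and 26.6% fell. The part of these cell types in the falls of the 6 members, and in the lower Ex5 levels of the 7, was not tested.

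Trp53inp1 (chr4:11156431-11174379, plus strand) encodes a nuclear stress protein that aids p53 and takes part in autophagy. It was measured at 73.7, 85.6 and 97.7 CPM in Ex4 and at 40.1, 47.6 and 67.4 CPM in Ex5, with no overlap. It fell by 0.19 ± 0.03 log2 per 100 min (adjusted p = 1.33e-07), with slopes of -0.14 ± 0.04 in Ex4 and -0.25 ± 0.04 in Ex5. The last Ex4 library, at 405 min, was up at 89.3 CPM after 74.5 CPM at 385 min. Without it the slope was -0.22. Ex5 stood at 0.602 times Ex4 (adjusted p = 9.91e-19).

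Zmat3 (chr3:32334792-32366014, minus strand) encodes an RNA-binding zinc finger protein. It was measured at 188, 202 and 223 CPM in Ex4 and at 148, 169 and 205 CPM in Ex5, and the courses overlapped. In Ex4 the highest library was the one that stood apart, at 405 min; in Ex5 the lowest was at 325 min, and 425 min was back at 175 CPM. The slope was -0.06 ± 0.02 log2 per 100 min (adjusted p = 0.0155). It was -0.01 ± 0.03 in Ex4 (adjusted p = 0.753) and -0.11 ± 0.03 in Ex5 (adjusted p = 0.00184). Fitted to each course alone it was -0.02 in Ex4 (adjusted p = 0.4996) and -0.10 in Ex5 (adjusted p = 0.0154). Ex5 was lower by 0.22 ± 0.03 log2 (adjusted p = 2.63e-07).

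**Figure D3:**
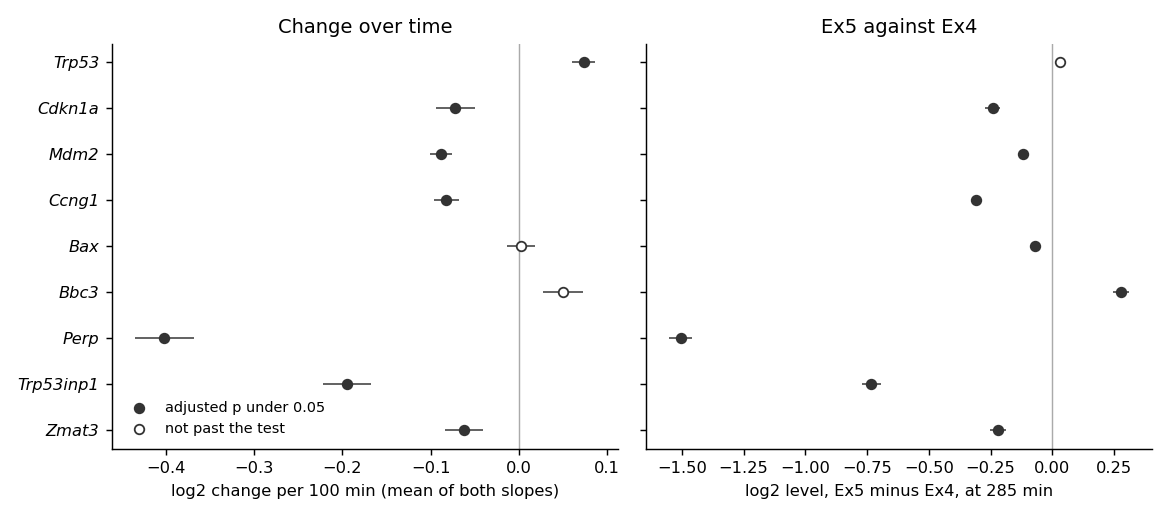
Fitted log2 change per 100 min (left) and log2 level of Ex5 minus Ex4 at 285 min (right) for each gene, with bars of 1 SE; filled points passed the test. Perp lies farthest to the left in both panels, at -0.40 and -1.50, and Trp53 is the only filled point above 0 in the panel of change over time.

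In the edgeR fit with straight slopes, Perp alone among the members had a slope that differed between the courses. Ex5 minus Ex4 was -0.18 ± 0.06 log2 per 100 min (adjusted p = 0.0481). Of all tested genes, 9.06% had a called negative difference and 7.03% a positive one. The call for Perp is marginal. It was lost in 22 of 32 fits that each left out 1 library, from either course, where the adjusted p ran from 0.0082 to 0.110. It was also lost in 5 of 9 other alternatives, among them DESeq2 (adjusted p = 0.0633), limma-voom (0.0796) and the times from 165 to 405 min (0.113). Which member passed also depended on the fit. Between 165 and 405 min Zmat3 passed (-0.14, adjusted p = 0.0239) where Perp did not. With quadratic time Zmat3 (-0.14, adjusted p = 0.000342) and Trp53inp1 (-0.15, adjusted p = 0.0121) passed beside Perp. With straight slopes Mdm2 had the opposite sign, 0.06 ± 0.02, at an adjusted p of 0.0556.

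Bbc3 (chr7:16308393-16318205, plus strand) encodes PUMA, which frees the killers Bax and Bak from their BCL2 guardians. It was measured at 25.5, 32.7 and 36.4 CPM in Ex4 and at 33.4, 38.7 and 45.5 CPM in Ex5. The lowest Ex4 library was the first, at 155 min; a second low of 27.4 CPM came at 275 min, between values of 34.1 CPM at 215 min and 36.4 CPM at 327 min. Ex5 had 45.5 CPM at 255 min, 33.4 CPM at 270 min and 44.2 CPM at 345 min. Hes7 was low at similar times, with 153 CPM at 275 min of Ex4 and 186 CPM at 325 min of Ex5. Bbc3 was at 33.9 CPM in that Ex5 library. At 270 min of Ex5, where Bbc3 was lowest in that course, Hes7 was at 227 CPM. At 305 min of Ex5 Bbc3 was at 38.7 CPM and Hes7 at 226 CPM. The fitted Hes7 peaks were 212 and 347 min for Ex4, then 237 and 372 min for Ex5.

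Bbc3 was the 1 member that cycled with Hes7, as 1.32% of tested genes did. Its fitted peak was 1.22-fold its trough (0.28 ± 0.05 log2, adjusted p = 0.000589) and lay at -7.71 min relative to that of Hes7. The fold was 1.24 in Ex4 and 1.21 in Ex5, and a difference in rhythm between courses did not pass for it (adjusted p = 0.927) or for any of the 11772 filtered genes (0 genes with edgeR, limma-voom or DESeq2, and 5.47% at an unadjusted p under 0.05 with edgeR; without the filter edgeR called 2 of 18180). In Ex5 alone the size was alike at 0.28 log2, but the adjusted p was 0.207. A period fitted to Bbc3 itself was 129 min (95% interval 117 to 144), and that of Hes7 was 135 min (129 to 141). The deviations of Bbc3 and Hes7 from each course's mean correlated with r = 0.84 in Ex4 and 0.86 in Ex5 over 16 libraries each.

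**Figure D4:**
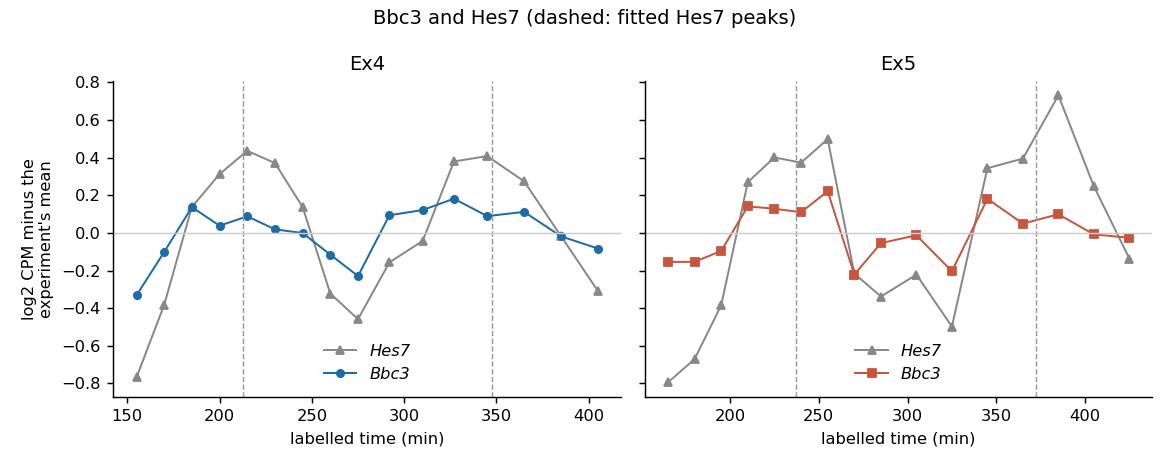
Log2 CPM of Bbc3 and Hes7 minus each gene's mean in the course, against labelled time in minutes; dashed lines mark the fitted Hes7 peaks at 212 and 347 min (Ex4) and 237 and 372 min (Ex5). Both genes are low together near 275 min (Ex4) and at 325 min (Ex5), with the smaller swing in Bbc3. In Ex5 the lowest Bbc3 library is at 270 min, where Hes7 is not at its lowest.

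Bbc3 was also the only member that was higher in Ex5, by 0.28 ± 0.03 log2 (adjusted p = 3.66e-09), or 1.21-fold. With counts corrected for GC content and length that difference was 0.13 (adjusted p = 1.17e-05) and the rhythm 0.20 log2 (adjusted p = 0.000738). Its slope was 0.05 ± 0.02 log2 per 100 min and did not pass (adjusted p = 0.0632); with the correction it did (0.06, adjusted p = 0.00408). At 65.2% its exons were the richest in GC among the members, and those of Trp53inp1 the poorest at 38.8%.

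Several members shared scatter with the GC content of the libraries. A GC score per library was taken as the correlation, over 8933 genes, of the deviations from the fitted curves with GC content. The members' own deviations correlated with it over 32 libraries at r = 0.70 for Trp53, 0.69 for Bax and 0.49 for Bbc3, and at -0.73 for Ccng1 and -0.51 for Trp53inp1, while Mdm2 was at -0.13. Ccng1 and Trp53inp1, both poor in GC, tracked each other at r = 0.91 in deviations from the course means and 0.81 around the curves. Trp53 ran against Trp53inp1 at r = -0.86 and -0.64. Cdkn1a and Zmat3, with GC correlations of 0.25 and -0.25, had r = 0.66 and 0.64. Across 8933 genes GC content correlated with the slope at r = 0.19 and with the level difference at r = 0.06, a description over genes that are not independent. The part of GC content in the members' correlations was not tested.

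Of 48 further p53 targets, 44 were tested, and 18 fell over time while 2 rose; their median slope was -0.04 log2 per 100 min, against -0.0016 for all tested genes. Ex5 was lower for 24 of them and higher for 7, with a median of -0.13 against -0.0021. As shares, 40.9% fell over time against 26.6% of all tested genes, and 54.5% were lower in Ex5 against 27.7%. The share that rose was 4.5% against 26.8%, and the share higher in Ex5 was 15.9% against 27.4%.

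Targets with a role in cell death, among them Triap1, which inhibits it, were lower in Ex5 for 11 of 13 tested (84.6%, against 27.7% of all tested genes). They were higher for 1 (7.69%, against 27.4%). Pmaip1 (NOXA), a partner of Bbc3 in the BCL2 family, was lower by 1.01 ± 0.05 log2 (adjusted p = 2.14e-20), in the opposite direction to Bbc3. The death receptor Tnfrsf10b was lower by 0.30 ± 0.03. Over time 4 of the 13 fell (30.8%, near the 26.6% of all tested genes) and 1 rose (7.69%, against 26.8%). Pmaip1 fell at -0.12 ± 0.03 and Siva1 at -0.08 ± 0.02 log2 per 100 min, and Bid rose at 0.08 ± 0.02. These are means of both courses. For Pmaip1 the slopes were -0.23 ± 0.04 in Ex4 and -0.01 ± 0.05 in Ex5, and for Bid 0.13 ± 0.03 and 0.02 ± 0.03. Both slope differences passed (adjusted p = 0.0114 and 0.0445).

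Of 9 tested targets tied to growth arrest, 4 were lower in Ex5 (44.4%, against 27.7% of all tested genes) and 2 higher (22.2%, against 27.4%). Over time 3 of them fell (33.3%, against 26.6%) and 0 rose (26.8% of all tested genes did). The kinase Plk2 was lower by 0.73 ± 0.04 log2 and fell by 0.17 ± 0.03 per 100 min. Phlda3, which restrains Akt, was lower by 0.28 ± 0.03, and the stress gene Gadd45a was higher by 0.39 ± 0.04. Targets in metabolism, redox balance and autophagy fell over time for 8 of 13 tested (61.5%, against 26.6%), with 0 rising (26.8% of all tested genes did). In Ex5 6 of them were lower (46.2%, against 27.7%) and 2 higher (15.4%, against 27.4%). The adenylate kinase Ak1 fell by 0.16 ± 0.02 per 100 min and was lower in Ex5 by 0.42 ± 0.03, and Dcxr was lower by 0.70 ± 0.04. Ddit4, an inhibitor of mTORC1, passed the rhythm test (adjusted p = 0.0354), 1 of the 44 targets, as 1.32% of all tested genes did. It was named after its value was seen.

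Among 6 tested DNA repair targets 1 rose (Xpc, 0.09 ± 0.02 log2 per 100 min) and 1 fell (Polh, -0.12 ± 0.03). Those shares were 16.7% each, against 26.8% and 26.6% of all tested genes. In Ex5 2 of the 6 were lower (33.3%, against 27.7%), among them Polk by 0.41 ± 0.05. Polh was higher in Ex5, the 1 of 6 that was (16.7%, against 27.4%). Of the 3 tested feedback genes besides Mdm2, 2 fell over time (66.7%, against 26.6%) and 0 rose (26.8% of all tested genes did). The ubiquitin ligase Rchy1 fell by 0.11 ± 0.02 and the phosphatase Ppm1d by 0.05 ± 0.02 log2 per 100 min.

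**Figure D5:**
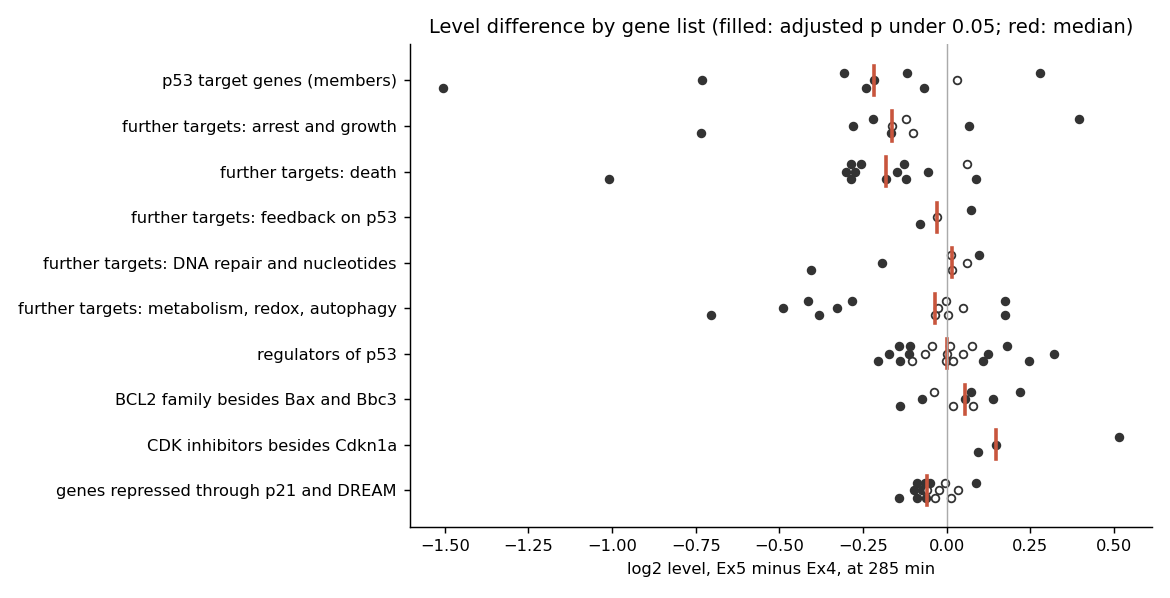
Log2 level of Ex5 minus Ex4 at 285 min for each tested gene of the named lists, 1 point per gene, filled where the test was passed; red bars are list medians. Targets with a role in death lie mostly to the left of 0, with Pmaip1 at -1.01, and the regulators of p53 are spread to both sides.

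The counts for regulators of p53 were near those of all tested genes. Of 20 tested, 5 rose (25.0%, against 26.8%) and 6 fell over time (30.0%, against 26.6%), and 5 were higher (27.4% of all tested genes were) and 6 lower in Ex5 (27.7%). The damage kinase Atm fell by 0.11 ± 0.03 log2 per 100 min and Hipk2, a kinase that acts on p53, rose by 0.11 ± 0.02. For Hipk2 the slopes were 0.20 ± 0.03 in Ex4 and 0.02 ± 0.03 in Ex5, and their difference passed (adjusted p = 0.00177). Ppp1r13b (ASPP1), which steers p53 towards death genes, fell by 0.39 ± 0.04 and was higher in Ex5 by 0.32 ± 0.06. The relatives Trp63 and Trp73 did not pass the filter on low counts.

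In the BCL2 family 9 genes besides Bax and Bbc3 were tested, of which 3 rose (33.3%, against 26.8% of all tested genes) and 2 fell over time (22.2%, against 26.6%). In Ex5 4 were higher (44.4%, against 27.4%) and 2 lower (22.2%, against 27.7%). The killer Bmf rose by 0.19 ± 0.03 log2 per 100 min and was higher in Ex5 by 0.22 ± 0.04, while the guardian Mcl1 fell by 0.12 ± 0.01. All 3 tested CDK inhibitors besides Cdkn1a, of 5 listed, were higher in Ex5 (27.4% of all tested genes were), opposite to Cdkn1a. The differences were 0.51 ± 0.03 log2 for Cdkn1c, 0.15 ± 0.04 for Cdkn2d and 0.09 ± 0.03 for Cdkn1b. Cdkn1c also passed the rhythm test (adjusted p = 0.0289), as 1.32% of all tested genes did. Genes that p21 is known to repress through the DREAM complex were all tested (15 of 15). Of these, 8 were lower in Ex5 (53.3%, against 27.7% of all tested genes) and 1 was higher (6.67%, against 27.4%). The differences were -0.14 ± 0.02 for Birc5 and -0.10 ± 0.02 for Kif23. Over time 3 of them rose (20.0%, against 26.8%) and 4 fell (26.7%, against 26.6%).

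The genes whose log2 CPM, as deviations from each course's mean, was most like that of Cdkn1a over the 32 libraries were Plk2 (r = 0.86), Mapkapk3 (0.85), Grn (0.85), Tubb4a (0.84) and Camkv (0.82). For Mdm2 they were Sparc (r = 0.88), L1td1 (0.85), Chchd10 (0.85), Wnt8a (0.85) and Ap1s3 (0.84). Around the fitted curves the genes like Cdkn1a stayed between 0.73 and 0.79, and those like Mdm2 lay between -0.03 and 0.59. For Bbc3, added after its rhythm was seen, they were Hes7 (r = 0.84), Ier2 (0.82), Per1 (0.81), Lfng (0.78) and Gse1 (0.78); around the curves these were 0.83, 0.66, 0.50, 0.34 and 0.65.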

How the data were processed

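Polyadenylated RNA of 32 dishes was sequenced with a stranded mRNA kit, per the labels' protocols. Raw counts of reads for each gene symbol were deposited. The submitters' processing notes name mm10, HTSeq 0.6.1, HISAT2 2.1.0, cutadapt 1.14 and bcl2fastq 2.17.1.14; annotation and strand setting: not given in the sources used here. Columns were matched to samples through their descriptions, and 0 were left unused.

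The 11772 genes that reached 1 CPM in 16 or more libraries were fitted with edgeR 4.0.16 in R 4.3.3 (TMM, quasi-likelihood test). Each course had a level and a straight slope in labelled time, centred at 285 min, beside a shared cosine and sine of the Hes7 phase. P-values were adjusted by Benjamini-Hochberg over all tested genes, with a threshold of 0.05. Each time has 1 dish per course, so p-values measure scatter of dishes around these curves. The scripts were tested on simulated data. DESeq2 1.42.0, limma-voom (limma 3.58.1), other filters, time shapes and periods, each library left out, and GC and length offsets (chosen after seeing the data) were alternatives.

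Positions, exon lengths and GC content are from GENCODE M21 (GRCm38), matched by symbol. Correlations used log2 CPM with a prior count of 0.5. All members were named; per further list, up to 3 genes past the trend test in each direction by slope and up to 2 past the level test by size. Motifs were chosen, and Bbc3's likeness added, after values were seen. The members and lists were chosen with earlier results of these data known. Depth was 16132024 to 29528175 counted reads per library, and limits the rarest genes most. Same-numbered time points mark different minutes: deviations of the 16 pairs correlated at a median r of 0.32, and around the fitted curves at -0.02, with 3 over 0.1, so the numbers were not taken as pairs.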

Additional observations from a re-analysis of the deposited data

Results flagged for a closer look

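Perp was the 1 member whose slope differed between the courses by the test of the difference itself: Ex5 minus Ex4 was -0.18 ± 0.06 log2 per 100 min (adjusted p = 0.0481 with edgeR's quasi-likelihood test), from slopes of -0.31 in Ex4 and -0.49 in Ex5. All 32 libraries entered the fit, and the lowest count behind it was 46 reads. The direction was the same in every alternative run, at -0.22 to -0.15 log2, while the adjusted p ranged from 0.0082 to 0.113. Between 165 and 405 min Zmat3 passed this test and Perp did not.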

How the results depend on the processing

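The count of members that fell over time was 5 or 6 and that of members lower in Ex5 was 7 under every alternative run, each left-out library included; the fit with time point numbers as a replicate block also gave 7. Of 36 single values for members, 25 kept direction and call throughout. Members that rose over time numbered 2 in Ex4 alone and with GC and length offsets, by the addition of Bbc3, and 1 to 2 with a library left out. Members higher in Ex5 numbered 2 with GC and length offsets, by the addition of Trp53 (adjusted p = 0.0358). Members with a higher slope in Ex5 numbered 1 (Mdm2) with DESeq2, quadratic time, no rhythm terms, and GC and length offsets, and 0 to 1 with a library left out. Members with a lower slope in Ex5 numbered 0 with DESeq2, limma-voom, no filter and no rhythm terms. They numbered 3 with quadratic time (Perp, Trp53inp1 and Zmat3) and 2 with the offsets (Perp and Trp53inp1). Between 165 and 405 min Zmat3 passed in place of Perp. With a library left out they numbered 0 to 1, and the gene was not always Perp. It was Zmat3 without the Ex5 library at 425 min and Trp53inp1 without that at 405 min. Rhythmic members numbered 0 in Ex5 alone. The slope of Bax, never past the test, changed sign to -0.0023 with a filter at 5 CPM, -0.00043 with quadratic time, -0.0013 between 165 and 405 min, -0.0080 in Ex4 alone, and ranged from -0.0029 to 0.017 with a library left out. The slope difference of Cdkn1a ranged from -0.046 to 0.0049 with a library left out. The cause of these shifts was not tested. Over all genes, quadratic time called 3081 slope differences against 1894, the rhythm without a time trend 62 genes against 155, and the offsets 3824 rising against 2919 falling genes where the fit without them called 3153 and 3127. The depth limits Perp most.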
